A study of Mus musculus with 12 samples.

Results

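Neurod1, Pax6, Nes, Tubb3, Map2, Dcx and Ncam1 are genes used to follow the neural lineage, from the decision to become neural to the first neurons. They were picked by symbol, 7 of the 46477 genes in the count table, and their levels and changes were read in RNA from naïve and primed mouse pluripotent cells with and without MTCH2, a protein of the mitochondrial outer membrane. All 7 passed the filter on low counts, as did 17369 genes in all.

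The cells were C57BL/6 embryonic stem cells (ESCs) from E3.5 blastocysts of mice homozygous for a conditional MTCH2 allele (MTCH2 F/F). By the study's methods, maintenance and Cre treatment were in medium with serum on inactivated mouse embryonic fibroblasts (iMEF). For the step called priming below, the cells were first seeded without feeders in serum-free N2B27 medium. The 4 groups, of 3 libraries each, were naïve ESCs of each genotype, MTCH2 F/F or MTCH2 -/-, held in 2i/LIF (inhibitors of MEK and GSK3 with LIF), and epiblast-like cells (EpiLCs) of each genotype, made by moving ESCs to Activin A and FGF2, a step called priming. MTCH2 -/- cells were MTCH2 F/F cells treated with recombinant Cre and the controls were left untreated, so loss of MTCH2 and exposure to Cre cannot be told apart. GEO's labels call the MTCH2 F/F cells wild type and the tissue epiblast, whereas the libraries came from cultured cells.

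Neural differentiation is driven by basic helix-loop-helix (bHLH) proneural factors, which pair with E proteins, bind E-boxes (CANNTG) and switch on neuronal genes. ID proteins take up the E proteins, and HES and HEY factors repress proneural genes. In the embryo the neural plate forms from the epiblast, with PAX6 and Nestin marking neural progenitors and class III β-tubulin, MAP2 and doublecortin marking neurons; several of these genes are also transcribed at low or moderate level in cells that are not neural.

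Libraries held 17453328 to 24068523 counts. Mtch2 fell from 177 ± 5.41 CPM (counts scaled to the library total after TMM normalization; mean ± SD, n = 3 libraries throughout) in the control ESCs to 1.86 ± 0.305 CPM after Cre, and from 122 ± 0.572 to 1.88 ± 0.334 CPM in the EpiLCs, as labelled. The labelled states also matched their markers: the summed level of 12 naïve genes had a median of 5909 CPM in ESCs and 432 CPM in EpiLCs of MTCH2 F/F genotype, and that of 9 formative and primed genes 121 and 3278 CPM. Without MTCH2 these sums were 5077 and 158 CPM in ESCs and 2649 and 790 CPM in EpiLCs. Fewer cells of a type and less RNA per cell cannot be told apart in such bulk libraries, and this holds for each change given for the 7 genes.

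The stretches just before the start sites of Neurod1 and Nes are shown because these 2 members had the greatest differences between MTCH2 -/- and MTCH2 F/F ESCs, given with their values. RefSeq windows were found for 6 of the 7 members, on GRCm38.p6, and were shortened here to end before the transcripts of both RefSeq and GENCODE. Capitals mark an E-box, CANNTG, the kind of site bHLH factors bind; the windows were searched for it, and for ACAAAG on both strands, a motif of the SOX type. The Neurod1 stretch, chr2:79456752-79456886 on the minus strand, held 1 E-box, as 45.6% of 32851 RefSeq windows of the same length and place held at least 1, and no ACAAAG, which 9.51% held. The Nes stretch, chr3:87970843-87971077 on the plus strand, held neither, against 64.1% and 15.7% of the windows.
Neurod1: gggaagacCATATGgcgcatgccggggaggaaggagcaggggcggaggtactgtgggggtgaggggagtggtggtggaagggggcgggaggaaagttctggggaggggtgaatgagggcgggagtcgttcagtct
Nes: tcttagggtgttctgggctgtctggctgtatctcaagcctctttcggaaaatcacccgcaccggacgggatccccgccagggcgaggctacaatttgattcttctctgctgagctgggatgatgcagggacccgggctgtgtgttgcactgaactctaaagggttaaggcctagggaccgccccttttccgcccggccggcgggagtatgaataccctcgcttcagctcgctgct

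Genes can be ranked by level only per length, so the group mean was divided by the length of exon in GENCODE vM21 (CPM per kb). Tubb3, the neuronal β-tubulin, had the highest of the 7 levels in all 4 groups, from 20.9 CPM per kb (MTCH2 F/F ESCs) to 38.4 (MTCH2 -/- EpiLCs). Neurod1 and Nes came next in the MTCH2 F/F EpiLCs, both at 13.4 CPM per kb. Ncam1 lay between 1.60 and 5.04 and Map2 between 0.351 and 1.24 CPM per kb over the groups. Pax6 and Dcx were at the bottom, at no more than 0.286 and 0.076 CPM per kb in any group.

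**Figure D1:**
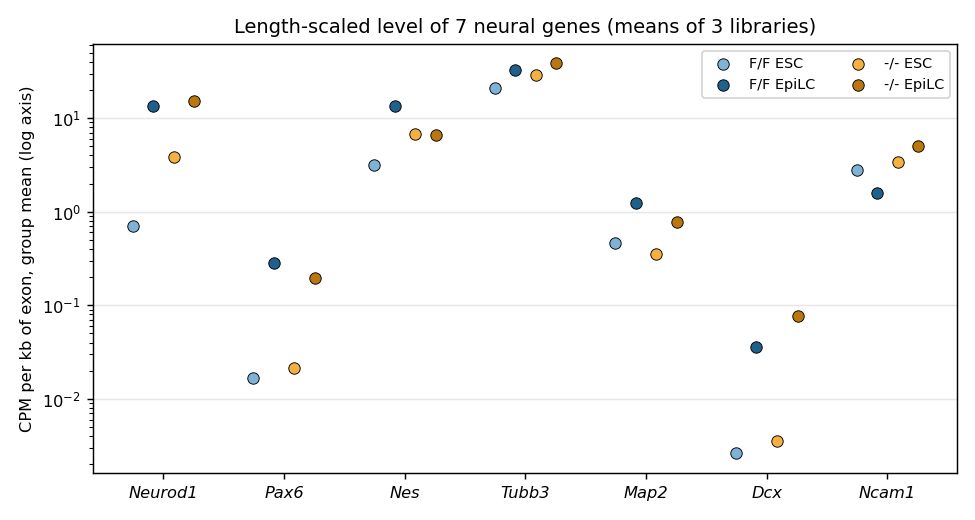
Group mean level of each of the 7 genes in CPM per kb of exon on a log axis, with 1 point for each group of 3 libraries. Tubb3 lies above the other genes in each group, while Pax6 and Dcx stay under 0.3 CPM per kb.

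Neurod1 encodes a proneural bHLH factor of neuronal and endocrine differentiation. It lies on chr2:79452521-79456751 (GRCm38, minus strand). Its level was 1.98, 1.85 and 1.93 CPM in replicates 1, 2 and 3 of MTCH2 F/F ESCs and 34.2, 36.6 and 38.9 CPM in MTCH2 F/F EpiLCs. Without MTCH2 it was 10.5, 9.03 and 12.4 CPM in ESCs and 40.3, 38.7 and 46.5 CPM in EpiLCs. The MTCH2 -/- ESCs thus lay between the naïve and primed MTCH2 F/F cells with no overlap, whereas the EpiLCs of the genotypes overlapped.

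Neurod1 was higher in MTCH2 -/- than in MTCH2 F/F ESCs by 2.46 on the log2 scale (SE 0.146, adjusted p = 1.07e-08). It rose on priming by 4.24 (SE 0.138, adjusted p = 5.67e-13) in MTCH2 F/F cells and by 1.98 (SE 0.110, adjusted p = 1.75e-09) in MTCH2 -/- cells. The responses, MTCH2 -/- minus MTCH2 F/F, differed by -2.26 (SE 0.180, adjusted p = 2.37e-07), a test of the difference itself. In the EpiLCs the difference between genotypes was 0.19 (SE 0.102, 95% interval -0.02 to 0.41, adjusted p = 0.109), and 0.19 (SE 0.0773, adjusted p = 0.0397) with the replicate number as a block.

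Part of the Neurod1 exon sequence, 13% (355 bases), is also annotated as exon of Cerkl on the same strand or of the lincRNA Gm26755 on the other, and the rule for such reads was not given in the sources used here. Cerkl had 3.04 ± 0.199 CPM (MTCH2 F/F) and 3.67 ± 0.841 CPM (MTCH2 -/-) in ESCs, and 1.01 ± 0.311 and 1.83 ± 0.363 CPM in EpiLCs. Gm26755 had at most 4 counts in any library. Cerkl was thus above Neurod1 in MTCH2 F/F ESCs (mean of Neurod1 1.92 CPM) and below it in the other 3 groups (10.6 CPM in MTCH2 -/- ESCs). The share of Neurod1 counts that came from reads of Cerkl was not tested.

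Pax6, on chr2:105668900-105697364 (plus strand), encodes a paired-box transcription factor of the eye, forebrain and neural progenitors. Its level was 0.248, 0.195 and 0.149 CPM in MTCH2 F/F ESCs and 0.365, 0.233 and 0.161 CPM in MTCH2 -/- ESCs. In EpiLCs it was 4.59, 2.04 and 3.40 CPM (MTCH2 F/F) and 1.96, 2.88 and 1.98 CPM (MTCH2 -/-). None of the 6 ESC libraries reached the filter's minimum of 0.483 CPM and all 6 EpiLC libraries did, so Pax6 was tested because it was higher in EpiLCs, and a change with priming was built into its selection.

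Priming changed Pax6 by 4.03 on the log2 scale (SE 0.399, adjusted p = 2.17e-07) in MTCH2 F/F cells and by 3.09 (SE 0.386, adjusted p = 9.79e-06) in MTCH2 -/- cells, and the difference of these responses was -0.94 (SE 0.648, adjusted p = 0.28). Between genotypes it differed by 0.39 (SE 0.581, adjusted p = 0.616) in ESCs and by -0.55 (SE 0.275, adjusted p = 0.0925) in EpiLCs, where the libraries overlapped. The last value passed the test without MTCH2 F/F EpiLC replicate 2 (-0.83, adjusted p = 0.0127) and without MTCH2 -/- EpiLC replicate 2 (-0.75, adjusted p = 0.0448).

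Nes, on chr3:87971078-87980451 (plus strand), encodes Nestin, the intermediate filament of neural progenitors. Its level was 23.4, 20.8 and 16.6 CPM in MTCH2 F/F ESCs and 98.9, 93.5 and 65.3 CPM in MTCH2 F/F EpiLCs. With MTCH2 deleted it was 45.4, 41.1 and 43.1 CPM in ESCs and 38.3, 42.3 and 45.4 CPM in EpiLCs. Both MTCH2 -/- groups lay between the MTCH2 F/F groups without touching either, and overlapped with each other.

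Nes was higher in MTCH2 -/- than in MTCH2 F/F ESCs by 1.09 on the log2 scale (SE 0.149, adjusted p = 5.78e-05) while in EpiLCs the MTCH2 -/- cells had less (-1.03, SE 0.141, adjusted p = 2.3e-05). It rose by 2.08 (SE 0.149, adjusted p = 2.04e-08) on priming of MTCH2 F/F cells. Its change on priming of MTCH2 -/- cells was -0.04 (SE 0.143, 95% interval -0.35 to 0.26, adjusted p = 0.836). The responses differed by -2.13 (SE 0.205, adjusted p = 3.68e-06).

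**Figure D2:**
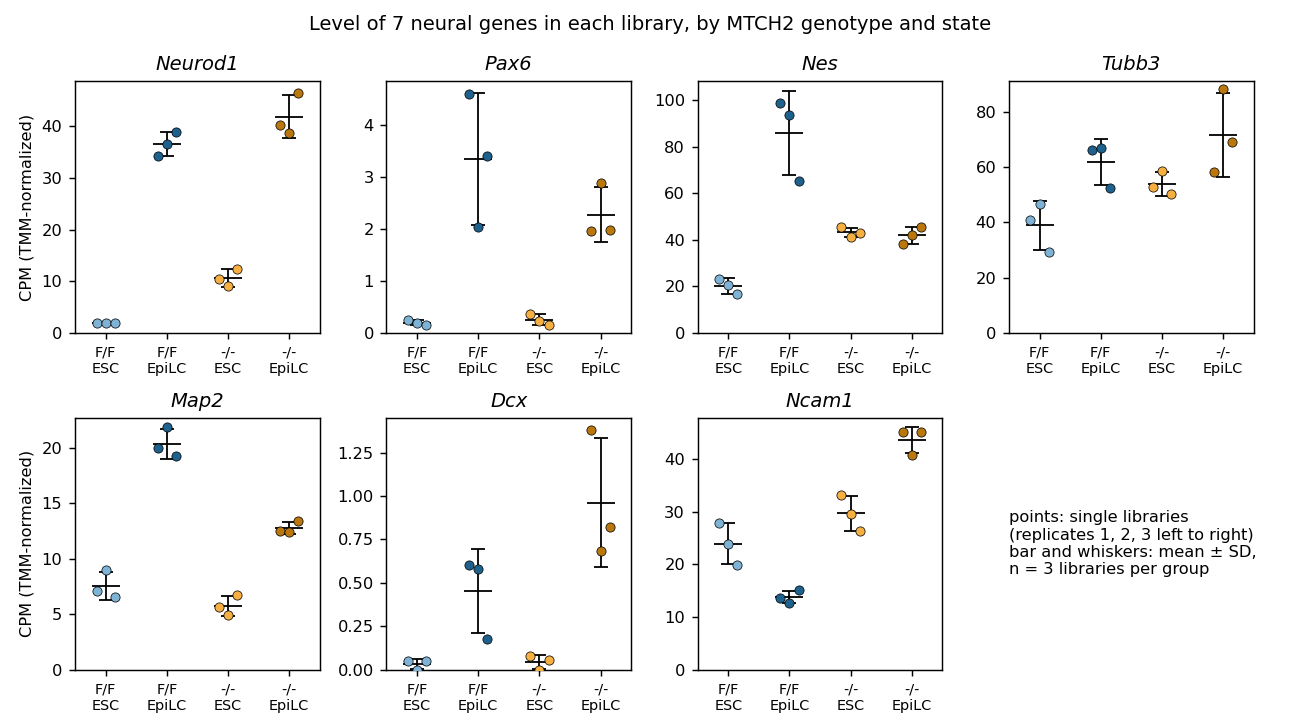
Level of each gene in TMM-scaled CPM in the 12 libraries by genotype and state, with points for libraries (replicates 1, 2 and 3 from left to right) and bars for mean ± SD (n = 3). For Nes both MTCH2 -/- groups lie between the MTCH2 F/F ESCs and EpiLCs, and Ncam1 is lowest in MTCH2 F/F EpiLCs and highest in MTCH2 -/- EpiLCs.

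Tubb3, on chr8:123411424-123422015 (plus strand), encodes class III β-tubulin of neuronal microtubules. For MTCH2 F/F its level was 40.9, 46.7 and 29.3 CPM in ESCs and 66.2, 67.0 and 52.3 CPM in EpiLCs, and for MTCH2 -/- it was 52.8, 58.7 and 50.2 CPM and 58.2, 88.2 and 68.9 CPM. It rose by 0.67 on the log2 scale (SE 0.179, adjusted p = 0.00604) on priming of MTCH2 F/F cells, whose groups did not overlap. The EpiLCs of the genotypes overlapped and differed by 0.21 (SE 0.175, adjusted p = 0.312).

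For priming of MTCH2 -/- cells (0.41, SE 0.175, adjusted p = 0.0807) and for MTCH2 -/- against MTCH2 F/F ESCs (0.47, SE 0.179, adjusted p = 0.0519), the call on Tubb3 depended on the fit. DESeq2 (adjusted p = 0.031 and 0.024) and the compared groups alone (0.0333 and 0.0293) called both, and library totals (0.0287) and a stricter filter (0.0421) called the second. With the replicate block these values were 0.40 (adjusted p = 0.0101) and 0.48 (adjusted p = 0.00427). The first also passed without MTCH2 F/F ESC replicate 3 (adjusted p = 0.0289) or MTCH2 -/- EpiLC replicate 1 (0.0306), and the second without MTCH2 F/F ESC replicate 2 (0.0255), MTCH2 -/- EpiLC replicate 1 (0.0374) or replicate 2 (0.0296).

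Map2, on chr1:66175273-66442583 (plus strand), encodes a microtubule-associated protein of dendrites. For MTCH2 F/F its level was 7.10, 8.98 and 6.54 CPM in ESCs and 20.0, 21.9 and 19.2 CPM in EpiLCs, and for MTCH2 -/- it was 5.63, 4.93 and 6.75 CPM and 12.5, 12.4 and 13.4 CPM. Both genotypes showed non-overlapping ESC and EpiLC groups. The MTCH2 -/- EpiLCs lay below all MTCH2 F/F EpiLCs, whereas the ESCs of the genotypes overlapped.

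Map2 rose on priming by 1.43 on the log2 scale (SE 0.133, adjusted p = 9.88e-08) in MTCH2 F/F cells and by 1.15 (SE 0.137, adjusted p = 6.1e-06) in MTCH2 -/- cells, responses that differed by -0.28 (SE 0.191, adjusted p = 0.268). It was lower in MTCH2 -/- than in control EpiLCs (-0.67, SE 0.127, adjusted p = 0.000258). The difference between ESCs was smaller (-0.39, SE 0.142, adjusted p = 0.0355) and lost the call without MTCH2 F/F ESC replicate 2 (adjusted p = 0.173), MTCH2 -/- ESC replicate 1 (0.0858) or MTCH2 -/- ESC replicate 2 (0.136), and with the compared groups alone (0.0869).

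Dcx, on chrX:143855842-143933311 (minus strand), encodes doublecortin, which binds microtubules in migrating young neurons. It had 1, 0 and 1 counts in MTCH2 F/F ESCs, 2, 0 and 1 in MTCH2 -/- ESCs, 11, 12 and 3 in MTCH2 F/F EpiLCs and 31, 13 and 17 in MTCH2 -/- EpiLCs. No ESC library and 5 of the 6 EpiLC libraries reached the filter's minimum, so Dcx too was tested through its EpiLC level. At this depth its level in ESCs rested on 2 and 3 counts over 3 libraries.

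As a ratio of depth-scaled counts, Dcx in MTCH2 F/F EpiLCs was 14.1 times its level in ESCs (26 against 2 counts, 95% counting interval 3.54 to 123), and in MTCH2 -/- cells 21.2 times (61 against 3 counts, 6.92 to 106). These intervals cover counting error only. In the fit across genes both changes passed (adjusted p = 0.00118 and 7.93e-05), and the responses were not told apart (difference 0.64, SE 1.70, adjusted p = 0.804). The ESCs of the genotypes gave a ratio of 1.41 (3 against 2 counts, 0.161 to 16.9; adjusted p = 0.81).

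In EpiLCs the Dcx ratio of MTCH2 -/- to MTCH2 F/F was 2.11 (61 against 26 counts, 1.31 to 3.48), the groups did not overlap, and the fit gave 1.06 on the log2 scale (SE 0.436, adjusted p = 0.0437). The call was lost with DESeq2 (adjusted p = 0.176), without MTCH2 F/F EpiLC replicate 3 (0.174) or replicate 2 (0.0527), and without MTCH2 -/- EpiLC replicate 1 (0.228) or replicate 3 (0.0535). It was also lost, at 0.0527, 0.0528 and 0.0527, without MTCH2 F/F ESC replicate 1, MTCH2 F/F ESC replicate 3 or MTCH2 -/- ESC replicate 3.

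Ncam1, on chr9:49502136-49798925 (minus strand), encodes the neural cell adhesion molecule, which can carry polysialic acid. Its level was 27.8, 23.95 and 19.96 CPM in MTCH2 F/F ESCs and 13.6, 12.8 and 15.1 CPM in MTCH2 F/F EpiLCs. Without MTCH2 it was 33.1, 29.6 and 26.3 CPM in ESCs and 45.0, 40.8 and 45.2 CPM in EpiLCs. All MTCH2 -/- EpiLC libraries were above all others, and all MTCH2 F/F EpiLC libraries below all others.

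Ncam1 thus moved in opposite directions on priming: it was lower in MTCH2 F/F EpiLCs than in ESCs (-0.79, SE 0.121, adjusted p = 2.83e-05) and rose by 0.56 (SE 0.112, adjusted p = 0.000886) in MTCH2 -/- cells, a difference of 1.35 (SE 0.166, adjusted p = 1.47e-05). In EpiLCs it was higher in MTCH2 -/- cells by 1.66 (SE 0.120, adjusted p = 1.54e-08). In ESCs the difference was 0.31 (SE 0.115, adjusted p = 0.0373) with overlapping libraries, and it lost the call without MTCH2 F/F ESC replicate 2 (adjusted p = 0.1) or 3 (0.23), MTCH2 F/F EpiLC replicate 1 (0.0592) or 2 (0.0527), or MTCH2 -/- ESC replicate 1 (0.162) or 2 (0.064), and with the compared groups alone (0.0572). The antisense genes that share exon with Ncam1 (Gm11149, 4.81%) and Map2 (Gm10558, 0.754%) had at most 4 counts in any library.

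**Figure D3:**
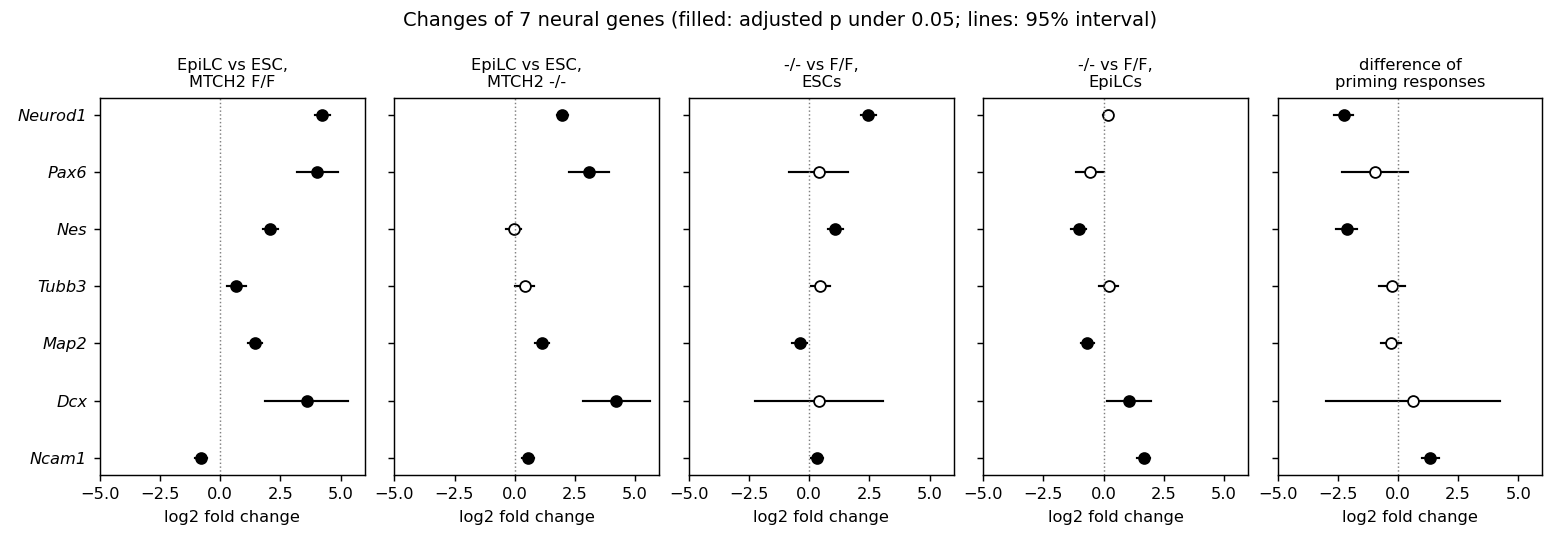
Log2 fold change of each gene in 4 comparisons and the difference of the responses to priming (MTCH2 -/- minus MTCH2 F/F), with 95% intervals and filled points at adjusted p under 0.05. Neurod1 and Nes lie to the left of 0 and Ncam1 to the right in the last panel.

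Counted together, on priming of MTCH2 F/F cells 6 of the 7 genes were higher and Ncam1 was lower, where 31.9% of all 17369 genes were higher and 32.1% lower at this threshold (64.0% in either direction). On priming without MTCH2 5 were higher and none lower, against 20.0% and 22.2% of all genes (42.2%). The median log2 change was 2.08 and 1.15, against -0.0092 and -0.018 over all genes. Pax6 and Dcx, which passed the filter through EpiLCs alone, are among those counted as higher in each genotype, so these counts support nothing about the set.

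For genotype in ESCs, 3 genes were higher (Neurod1, Nes, Ncam1) and Map2 was lower, with a background of 23.3% and 20.4%. In EpiLCs 2 were higher (Ncam1, Dcx) and 2 lower (Nes, Map2), with a background of 32.3% and 30.2%. Their medians were 0.42 and 0.19, against 0.0057 and 0.022 over all genes. The response to priming differed for 3 genes (Neurod1, Nes, Ncam1) where 17.8% of all genes were called higher and 17.2% lower, with medians of -0.28 and -0.014. In either direction the background was 43.7% in ESCs, 62.5% in EpiLCs and 35.0% for the response, beside 4, 4 and 3 of 7 genes, so these counts are no result about the 7 genes as a set.

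The rest of the neural program was read from 7 lists chosen by role. For each list the median log2 change is given for priming with MTCH2, priming without it, genotype in ESCs and genotype in EpiLCs, in this order, and over all genes tested these medians were -0.0092, -0.018, 0.0057 and 0.022. The shares of all genes that were higher and lower in these comparisons, 31.9% and 32.1%, 20.0% and 22.2%, 23.3% and 20.4%, and 32.3% and 30.2%, are the background of each count. A gene that reached the filter's minimum in libraries of 1 state only had to differ on priming, so the list counts and medians on priming support nothing about a list that holds such a gene. Of 16 other proneural bHLH factors only 6 passed the filter, 2 of them (Neurog1, Olig3) with no EpiLC library at the minimum; 1 was higher and 2 lower on priming of MTCH2 F/F cells, and 2 were lower with none higher in each of the other 3 comparisons (medians -1.01, -0.42, -0.26 and -0.10). The count was 1 for priming without MTCH2 when MTCH2 -/- ESC replicate 2 or 3 or MTCH2 -/- EpiLC replicate 1 was left out, and 1 for genotype in EpiLCs without MTCH2 F/F EpiLC replicate 3 or MTCH2 -/- EpiLC replicate 1 or 3. Olig1, a bHLH factor of the oligodendrocyte lineage, was lower without MTCH2 in both states, with 38.7 ± 4.40 CPM (MTCH2 F/F) and 21.4 ± 3.88 CPM (MTCH2 -/-) in ESCs (-0.86, SE 0.144, adjusted p = 0.000249). In EpiLCs it had 35.4 ± 5.96 and 26.3 ± 2.70 CPM (-0.43, adjusted p = 0.0167).

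Of the 33 neural plate transcription factors, 25 were tested, 1 of them (Nkx6-1) with no EpiLC library at the minimum. On priming 9 rose and 13 fell (MTCH2 F/F), or 9 rose and 7 fell (MTCH2 -/-). The ESCs without MTCH2 had 8 higher and 5 lower, and the EpiLCs 16 higher and 6 lower (medians -0.59, 0.067, -0.0054 and 0.94). Sox3, a SOXB1 factor of the early neural plate, had 0.509 ± 0.0705 CPM in ESCs and 25.5 ± 5.10 CPM in EpiLCs for MTCH2 F/F, and 0.694 ± 0.184 and 4.54 ± 0.483 CPM for MTCH2 -/-, and rose in both (adjusted p = 4.26e-12 and 1.82e-07). Pou3f1 (OCT6), which promotes neural fate in mouse cells, was lower in EpiLCs without MTCH2, with 38.7 ± 1.87 against 83.0 ± 12.2 CPM (-1.10, adjusted p = 9.79e-08). Otx2, a homeobox factor of epiblast and forebrain, was lower there too, with 43.2 ± 4.41 against 165 ± 18.8 CPM (-1.94, adjusted p = 1.07e-06). Hesx1, a homeobox repressor of the anterior neural plate, fell on priming in both genotypes, from 13.4 ± 1.42 to 0.443 ± 0.105 CPM (MTCH2 F/F) and from 8.79 ± 0.906 to 0.901 ± 0.314 CPM (MTCH2 -/-).

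Of 15 neural progenitor markers 12 were tested, Ptn and Sox9 with no ESC library at the minimum, and on priming 8 rose and 2 fell with MTCH2 present and 7 rose and 2 fell without it. Between genotypes 3 were higher and 2 lower in MTCH2 -/- ESCs, whereas EpiLCs had 4 higher and 6 lower (medians 0.61, 0.58, 0.036 and -0.26). Ptn (pleiotrophin, a secreted growth factor), Slc1a3 (a glial glutamate transporter) and Prom1 (CD133, a surface marker of progenitors) were lower in EpiLCs without MTCH2, at 1.33 ± 0.154 against 6.20 ± 0.934, 20.3 ± 1.35 against 50.4 ± 2.23 and 8.88 ± 2.21 against 40.1 ± 0.561 CPM (adjusted p = 1.88e-06, 3.62e-07 and 6.04e-09). Hes1, which is also on this list, went the other way and was higher there (0.94, adjusted p = 3.87e-08).

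Among 25 genes of the neuronal cytoskeleton, 24 were tested: 14 rose and 8 fell on priming of MTCH2 F/F cells, 13 rose and 4 fell on priming without MTCH2, MTCH2 -/- ESCs had 8 higher and 3 lower, and MTCH2 -/- EpiLCs 8 higher and 10 lower (medians 0.80, 0.36, 0.21 and 0.13). Without MTCH2 F/F ESC replicate 1, 4 rather than 8 were higher in MTCH2 -/- ESCs, and 3 were lower. Prph, the intermediate filament peripherin of peripheral neurons, was higher in MTCH2 -/- cells of both states, at 13.2 ± 0.853 against 1.18 ± 0.356 CPM in ESCs (adjusted p = 2.14e-09) and 100.2 ± 13.0 against 27.8 ± 2.98 CPM in EpiLCs (adjusted p = 3.35e-09). Mapt, the axonal microtubule protein tau, fell on priming from 120.4 ± 5.42 to 5.72 ± 2.04 CPM (MTCH2 F/F) and from 104 ± 8.23 to 44.4 ± 4.89 CPM (MTCH2 -/-). Dclk1, a kinase related to doublecortin, rose from 0.0328 ± 0.0284 to 5.76 ± 1.23 CPM (MTCH2 F/F) and from 0.570 ± 0.180 to 2.61 ± 1.25 CPM (MTCH2 -/-). Crmp1, a collapsin response mediator of axon guidance, rose from 6.04 ± 1.87 to 274 ± 28.4 CPM and from 11.0 ± 2.88 to 153 ± 20.8 CPM, in the same order.

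Of 16 neural adhesion molecules and receptors 14 were tested, St8sia2 through its EpiLC level only, as no ESC library reached the minimum, and of these 11 rose and 1 fell on priming of MTCH2 F/F cells and 9 rose and 1 fell on priming without MTCH2. The MTCH2 -/- ESCs had 9 higher and 2 lower, and the EpiLCs 7 higher and 4 lower (medians 1.58, 1.18, 0.93 and 0.56). St8sia2, an enzyme that adds polysialic acid to NCAM1, was lower in MTCH2 -/- EpiLCs, at 0.839 ± 0.273 against 10.1 ± 1.56 CPM (-3.57, SE 0.231, adjusted p = 4.87e-09), where Ncam1 itself was higher. Cntfr, the receptor subunit for ciliary neurotrophic factor, was higher in MTCH2 -/- ESCs, at 4.45 ± 1.10 against 1.0 ± 0.241 CPM (adjusted p = 5.54e-06). Nfasc, neurofascin of the axon initial segment, was lower in EpiLCs without MTCH2, with 15.7 ± 1.80 against 32.8 ± 1.68 CPM (adjusted p = 7.72e-06).

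REST and its corepressors hold neuronal genes off in cells that are not neurons. Of 12 members tested, 8 fell and 2 rose on priming of MTCH2 F/F cells and 6 fell and 2 rose on priming without MTCH2. For MTCH2 -/- 6 were lower and 0 higher in ESCs, and 5 lower and 4 higher in EpiLCs (medians -0.21, -0.17, -0.21 and -0.14). The counts for priming of MTCH2 F/F cells, where 32.1% of all genes fell, rested on single libraries: without MTCH2 F/F ESC replicate 2 or 3 they were 6 and 5 falling, and without MTCH2 F/F EpiLC replicate 1 or 2 they were 5 and 6, with 0 rising in each case. The corepressors Rcor2 (-0.89, SE 0.0909, adjusted p = 2.2e-06) and Sin3a (-0.56, SE 0.0789, adjusted p = 3.95e-05) and the deacetylase Hdac1 (-0.49, SE 0.0731, adjusted p = 7.34e-05) were lower in ESCs without MTCH2. The phosphatase Ctdsp2 was lower in these ESCs, with 199 ± 10.3 against 248 ± 19.3 CPM (-0.31, adjusted p = 0.00576), and higher in EpiLCs without MTCH2, with 150.3 ± 12.2 against 103 ± 10.6 CPM (0.55, adjusted p = 3.25e-05).

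Among 9 ID, HES and HEY genes 8 were tested. On priming 2 rose and 5 fell where MTCH2 was present, and 1 rose and 2 fell where it was not. The MTCH2 -/- ESCs had 1 higher and 1 lower, and the EpiLCs 6 higher and 2 lower (medians -1.03, 0.11, -0.17 and 1.04). Higher in EpiLCs without MTCH2 were Id3, with 8.48 ± 1.95 against 1.69 ± 0.618 CPM (adjusted p = 6.76e-06), Id4, with 13.6 ± 1.21 against 2.20 ± 0.689 CPM (adjusted p = 5.07e-09), and Hes1, a Notch target, with 54.5 ± 0.771 against 28.4 ± 1.62 CPM (adjusted p = 3.87e-08). Hes6, an exception in the family that promotes rather than inhibits neurogenesis, was lower, at 38.0 ± 3.23 against 133 ± 8.05 CPM (adjusted p = 9.91e-11).

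**Figure D4:**
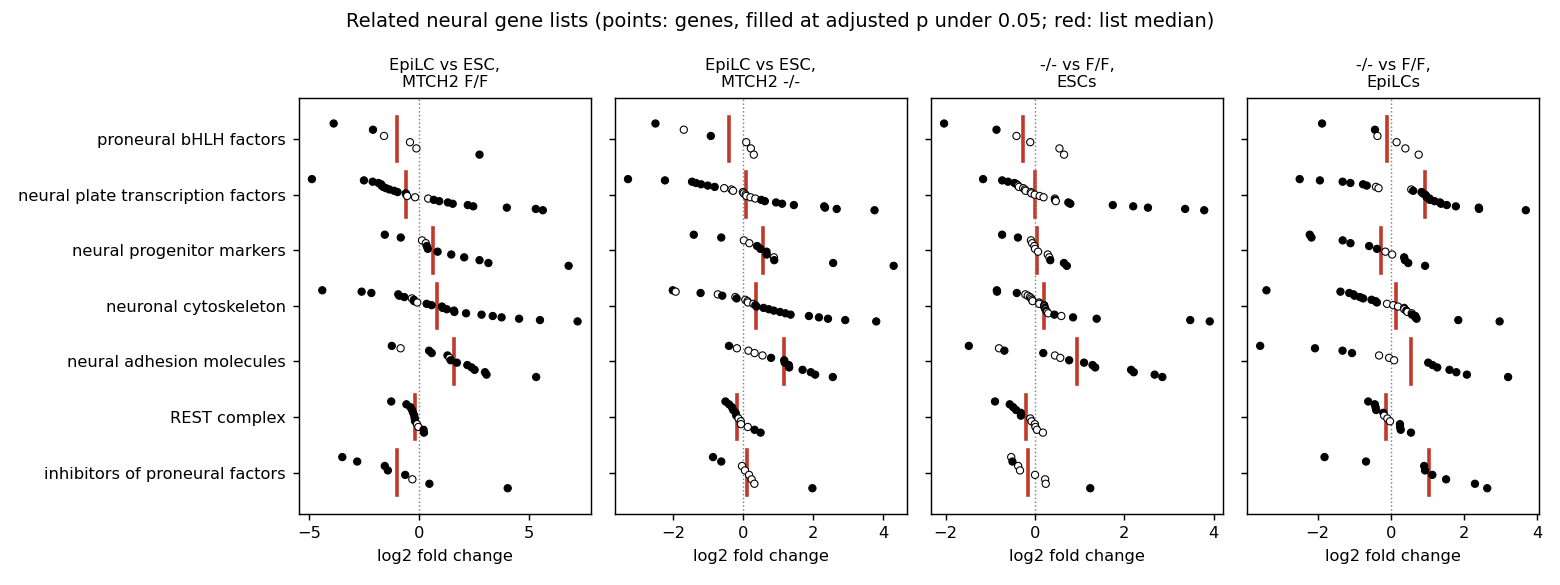
Log2 fold change of the tested genes of the 7 lists in the 4 comparisons between groups (each point is a gene, filled at adjusted p under 0.05; red bars are list medians; axes differ in range between panels). The ID, HES and HEY genes lie mostly to the right of 0 in MTCH2 -/- EpiLCs, with a median of 1.04.

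Markers of other cells moved with some of these comparisons. Over all genes tested, 23.3% were higher and 20.4% lower without MTCH2 in ESCs, and 32.3% and 30.2% in EpiLCs, the background of each count. Among ESCs without MTCH2, where Neurod1 and Nes were higher, 7 of 9 tested feeder fibroblast markers were higher and none lower, their summed level being 43.0 to 62.3 CPM against 33.3 to 43.2 CPM in MTCH2 F/F ESCs, and the primitive endoderm list had 6 of 10 tested higher and 1 lower (359 to 385 against 292 to 318 CPM). Trophoblast markers were 4 higher and 1 lower of 9 (184 to 217 against 148 to 172 CPM, Tpbpa at 0 in both), and of 9 maturing neuron markers 1 was lower and none higher (188 to 221 against 192 to 208 CPM, with Slc17a6 and Scg2 at 0 in MTCH2 F/F ESCs). Comparing EpiLCs, 11 of 12 naïve markers were higher and 8 of 9 formative markers lower for MTCH2 -/-, and 6 of 9 feeder markers were higher and 2 lower (46.4 to 61.7 against 42.0 to 47.4 CPM). Maturing neuron markers there were 2 higher and 4 lower of 9 (237 to 304 against 195 to 198 CPM), a sum carried by Stmn2 at a mean of 245 against 154 CPM. Gad1 was the other one higher, and Elavl3, Elavl4, Snap25 and Gad2 were lower. In the same EpiLCs the primitive endoderm list had 8 higher and 2 lower of 10 (312 to 373 against 305 to 330 CPM), and trophoblast markers 6 higher and 1 lower of 9 (69.3 to 83.4 against 51.3 to 64.9 CPM, Tpbpa at 0 in both). Neural crest markers had 4 higher and 1 lower of 7 (68.9 to 69.6 against 29.1 to 30.8 CPM, Tfap2b at 0 in MTCH2 F/F), and mesendoderm markers 1 and 1 of 5 (14.4 to 18.2 against 7.62 to 8.73 CPM, Msgn1 and Cer1 at 0 in MTCH2 F/F). In ESCs the crest list had 2 higher and 1 lower (72.5 to 83.7 against 98.0 to 118 CPM) and the mesendoderm list 1 higher and 2 lower (21.1 to 25.5 against 21.3 to 24.7 CPM). The part of these cells in the levels of the 7 genes was not tested.

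The 2 genes whose levels followed each member most closely over the 12 libraries were found by Pearson's r of log2(CPM + 1), a description in which the 3 libraries of a group share its level. For Neurod1 they were Slc39a14 (0.994) and Flnc (0.993), with Slc39a14 at 7.73 and 192 CPM (MTCH2 F/F ESCs and EpiLCs) and at 44.1 and 215 CPM (MTCH2 -/- ESCs and EpiLCs). For Nes they were Syt11 (0.977) and Mbnl3 (0.975), for Map2 Slc1a3 (0.989) and Lin28a (0.983), and for Ncam1 Msln (0.976) and Dnajc13 (0.974). For Tubb3 they were Tex40 (0.949) and Tmem109 (0.922), for Pax6 Slc7a3 (0.972) and Chac1 (0.968), and for Dcx Fbxo32 (0.962) and Sox10 (0.958). Chac1 and Sox10 were not in the first 2 with a pseudocount of 0.5.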

How the data were processed

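Polyadenylated RNA was sequenced from 12 libraries (TruSeq v2, which does not mark strand). Per the labels, bcl2fastq 2.16.0.10, TopHat2 2.0.10 on GRCm38, HTSeq 0.6.1p1 and DESeq2 1.6.3 were used. The deposited table gives counts, reads per gene symbol, and the authors applied no normalization to them, with a strand option not given in the sources used here. The 12 normalized columns and the 8 columns of the authors' fold changes and p-values were not used.

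Tests used edgeR 4.0.16 with limma 3.58.1 in R 4.3.3: filterByExpr (minimum count 10, about 0.483 CPM), TMM, the 4 groups fitted together without a block, quasi-likelihood F tests with robust priors, and adjustment by Benjamini-Hochberg over 17369 genes. Every adjusted p comes from that fit unless another tool, another setting or a left-out library is named. Genes with an adjusted p under 0.05 were called, and SE is the size of the log2 fold change over the square root of F. Contrasts were EpiLCs against ESCs in each genotype, MTCH2 -/- against MTCH2 F/F in each state, and the difference of the responses to priming. The exact permutation p for 3 libraries against 3 cannot go below 0.1. The study's methods call the 3 samples of a condition biological, without saying whether they were separate lines or cultures, so p-values measure the spread between these samples.

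Titles number replicates 1 to 3 in each group. Deviations from group means of same-numbered libraries correlated at r = 0.147 to 0.574 (12 pairs). Those of different numbers correlated at -0.412 to -0.01 (24 pairs). Deviations of the 3 libraries of a group cancel out, so the negative values partly follow from the positive ones and are not separate evidence. The same-number values, all positive, were taken to mean that the numbers pair the libraries. The main fit leaves this pairing out, and a fit with the replicate block was run as an alternative. Other alternatives were RLE factors, library totals, 2 filters, DESeq2 1.42.0, the compared groups alone, a 2-fold minimum and each library left out. Scripts were tested on simulated data.

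All 7 members are named, as are Mtch2, up to 4 genes per neural list (the greatest absolute log2 fold change in any comparison between groups at adjusted p under 0.05 and mean CPM of at least 1) and the 2 most like genes per member (mean CPM of at least 1, predicted genes left out); 1 gene that the rule names is not reported here. Genes outside this rule are named as antisense or overlapping partners as markers at 0, as list genes under the minimum in 1 state or as maturing neuron markers called in EpiLCs. The members and lists were chosen with earlier results of these data known.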

Additional observations from a re-analysis of the deposited data

Results flagged for a closer look

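The response to priming differed between genotypes, by the interaction term of the edgeR fit with Benjamini-Hochberg adjustment, for 3 of the 7 neural genes and for 18 of the 24 genes that the rule picked from the related lists. The rule took genes with great changes in the comparisons this test is made of, so 18 of 24 is not read against the 35.0% of all genes that passed it. Differences are log2 responses of MTCH2 -/- minus MTCH2 F/F cells.

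Among the 7 genes the differences were -2.26 for Neurod1, -2.13 for Nes and 1.35 for Ncam1. Of the neural plate factors, Sox3 differed by -2.96, Otx2 by -1.67 and Pou3f1 by -1.55, each of which rose less in MTCH2 -/- cells, and Hesx1 by 1.59, having fallen less. Of the progenitor markers Prom1 differed by -2.08 and Slc1a3 by -0.58 (adjusted p = 0.0465).

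In the cytoskeleton list Dclk1 differed by -5.05 (SE 0.825, with a level of 0.0328 CPM in MTCH2 F/F ESCs), Crmp1 by -1.69, Prph by -1.63 and Mapt by 3.19. Of the adhesion molecules and receptors St8sia2 differed by -2.76 (tested through its EpiLC level, with no ESC library at the minimum of 0.483 CPM), Nfasc by -1.82 and Cntfr by -1.01. The phosphatase Ctdsp2 of the REST list differed by 0.87. Of the ID, HES and HEY genes Id4 differed by 3.14, Id3 by 2.64, Hes1 by 0.94 and Hes6 by -2.05.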

How the results depend on the processing

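Over the 7 genes and 5 comparisons, 609 of 650 values under an alternative kept their direction and side of the threshold, 21 lost the call, 17 gained it and 3 turned. The turns were of values that passed no test: Nes on priming of MTCH2 -/- cells without MTCH2 -/- EpiLC replicate 1 (0.023), and Dcx between ESCs without MTCH2 F/F ESC replicate 2 (-0.11) or MTCH2 -/- ESC replicate 1 (-0.33). Over all single libraries left out, these ran from -0.10 to 0.023 and from -0.33 to 0.95. A 2-fold minimum left 4748 genes (priming, MTCH2 F/F), 2077 (priming, MTCH2 -/-), 1908 for genotype in ESCs, 3647 for genotype in EpiLCs and 2501 for the difference of responses, and 2 of the 7 genes for genotype in ESCs; fewer pass by construction. Leaving out 1 library at a time gave 2 to 5 of the 7 genes for genotype in ESCs (2 without MTCH2 -/- ESC replicate 1 or replicate 2).

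With the replicate block the 7 genes gave 7, 6, 5, 5 and 3 calls for priming of MTCH2 F/F cells, priming of MTCH2 -/- cells, genotype in ESCs, genotype in EpiLCs and the difference of responses, against 7, 5, 4, 4 and 3 without it. It changed no other call on these genes than those given for Tubb3 and Neurod1. The block raised the calls on the proneural bHLH list from 3 to 5 (priming of MTCH2 F/F cells) and on the REST list from 1 to 3 (difference of responses).

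Without scaling factors Neurod1 passed for genotype in EpiLCs (adjusted p = 0.0387) and Map2 did not for genotype in ESCs (0.0733), and DESeq2 did not call Ncam1 for genotype in ESCs (0.0524); the cause was not tested. Scaling moved the median of all genes by at most 0.065. Depth limits Dcx and Pax6 in ESCs. A minimum of 1 CPM removed Dcx.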
